A study of Mus musculus with 6 samples.

Results

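The LY6 genes encode small surface proteins of mouse cells, and 3 of 4 listed members, Ly6d, Ly6e and Ly6c1, were measured here among 22180 genes in mammary basal cells. Ly6a, which encodes the stem cell antigen Sca-1, was not analysed here. The members were chosen by name and on values of the same contrast, the knockout against wild type differences of these genes and the dim signal of Ly6c1, so those values are given below as a description with no test. The knockout group held 3 arrays of basal cells from Trp53-/-, p16ink4a-/- and p19arf-/- mice, which lack p53 and both products of Cdkn2a, and the wild type group held 3 arrays. All mice were virgin females aged 8 to 14 weeks, and each array was 1 biological replicate. The glands were digested with enzymes, beads carrying antibodies to CD45, CD31 and TER119 depleted blood and endothelial cells, and the basal fraction was then sorted, with CD49f and CD24 among the stained antigens. The labels name no Cre or promoter for the deletions.

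LY6 proteins share a compact fold held together by disulfide bonds, and most are tethered to the outer leaflet of the membrane by a glycosylphosphatidylinositol (GPI) anchor rather than by a transmembrane segment. Many serve as lineage markers in mouse blood and epithelium. Several, Ly6a and Ly6e among them, are known to respond to interferons in mouse cells. A run of LY6 genes lies side by side on mouse chromosome 15 and arose by repeated duplication, so that neighbouring copies resemble each other.

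All levels below are deposited log2 signals of 1 probe set per gene, and a step of 1 is a doubling of signal. Probe sets differ in how well they bind, so levels were compared within a gene, and the place of a signal among all gene means is given only to say how dim it is. Per-array medians over genes lay between 5.73 and 5.81, correlations between arrays across genes between 0.971 and 0.988, and no array repeated another. Having only 3 arrays per genotype limits the precision. Basal markers were set beside the labelled cell type. The basal keratin Krt14 averaged 13.25 ± 0.039 in knockout cells and 13.37 ± 0.122 in wild type cells (SD, n = 3 each). Krt17 averaged 12.99 in knockout and 13.04 in wild type cells, and the basal lineage factor Trp63 averaged 7.87 in knockout and 7.52 in wild type cells. Of 18 measured basal markers 7 were higher and 11 lower in the knockout. Some markers of other cells were bright too. The luminal keratin Krt8 averaged 11.22 in knockout and 11.55 in wild type cells, and the fibroblast marker Dcn 11.96 and 11.42. On average the luminal and fibroblast lists were dimmer than these 2 genes. Levels of different probe sets do not give the share of each cell type, so the purity of the sort was not tested. Over all genes, limma called 0 genes higher and 0 lower in knockout cells at the threshold of 0.05 on the adjusted p, which is 0.00% of 22180 in either direction, and the smallest adjusted p of any gene was 0.818. The unadjusted p was under 0.05 for 736 genes (3.32%), and for 1112 with replicate as a block.

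Ly6d varied more between arrays of one genotype than it differed between the genotypes. Its protein is known from keratinocytes and from lymphoid progenitors that turn to the B cell lineage. Ly6d read 9.97, 9.86 and 8.83 on the knockout arrays, against 8.61, 11.68 and 10.73 on the wild type arrays. The wild type arrays thus enclosed the knockout arrays: wild type replicate 1 was the lowest of the 6, and replicates 2 and 3 were the highest. The mean was 9.55 ± 0.63 in knockout cells and 10.34 ± 1.57 in wild type cells (SD, n = 3 each), a log2 difference of -0.79 with a limma standard error of 0.66. Without wild type replicate 1 this difference was -1.65, and without wild type replicate 2 it was -0.12. Between arrays of the same replicate number the knockout was higher by 1.35 at replicate 1 and lower at replicates 2 and 3, with differences of -1.81 and -1.90. The pooled standard deviation of Ly6d within genotypes was 1.19, against a median of 0.208 over all genes, and 0.0721% of genes had a larger one.

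As a list mean, luminal markers moved with Ly6d across the wild type arrays, but single markers differed. The mean of 18 measured luminal markers was 7.46, 7.72 and 7.08 on the knockout arrays, against 7.02, 8.38 and 8.07 on the wild type arrays. In this mean wild type replicates 2 and 3 were highest and wild type replicate 1 lowest, as for Ly6d. Krt18, Krt19, Cldn3, Elf3, Foxa1, Gata3 and Wfdc2 were instead lowest on knockout replicate 3. Elf5 was lowest on knockout replicate 2 and Kit on wild type replicate 3, and the other markers on wild type replicate 1. For Elf3, Elf5, Gata3 and Kit, wild type replicates 2 and 3 were not the highest arrays. Of these 18 markers 17 were lower and 1 was higher in the knockout, with a median log2 difference of -0.33, which was -0.72 without wild type replicate 1 and -0.13 without wild type replicate 2. The luminal keratin Krt8 read between 11.05 and 11.34 on the knockout arrays and between 11.01 and 11.86 on the wild type arrays, with overlap. Krt18, its partner keratin, read 11.20, 11.21 and 10.61 in knockout cells and 10.92, 12.16 and 11.78 in wild type cells. Krt19, another luminal keratin, read 7.91, 8.50 and 7.25 in knockout cells and 7.30, 9.10 and 9.01 in wild type cells. In bulk samples fewer cells of a type and less RNA per cell cannot be told apart. The part of luminal cells in the Ly6d values was not tested.

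The genes whose profiles over the 6 arrays lay nearest to that of Ly6d were found after subtracting each gene's own mean, by the root mean square distance on the log2 scale. Gipc2, a PDZ domain protein, lay at 0.202, the iron-binding milk protein lactoferrin (Ltf) at 0.219, glutamine synthetase (Glul) at 0.221 and the sodium-potassium-chloride cotransporter Slc12a2 at 0.233. The median distance of all genes compared was 1.07. Ltf read 7.29, 7.47 and 6.06 in knockout cells, against 6.40, 8.94 and 7.92 in wild type cells. Slc12a2 read 9.86, 9.64 and 9.16 in knockout cells, against 8.86, 11.37 and 10.77 in wild type cells. Both were highest on wild type replicates 2 and 3, which follows from picking them by nearness to Ly6d. The genotypes overlapped for both.

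**Figure D1:**
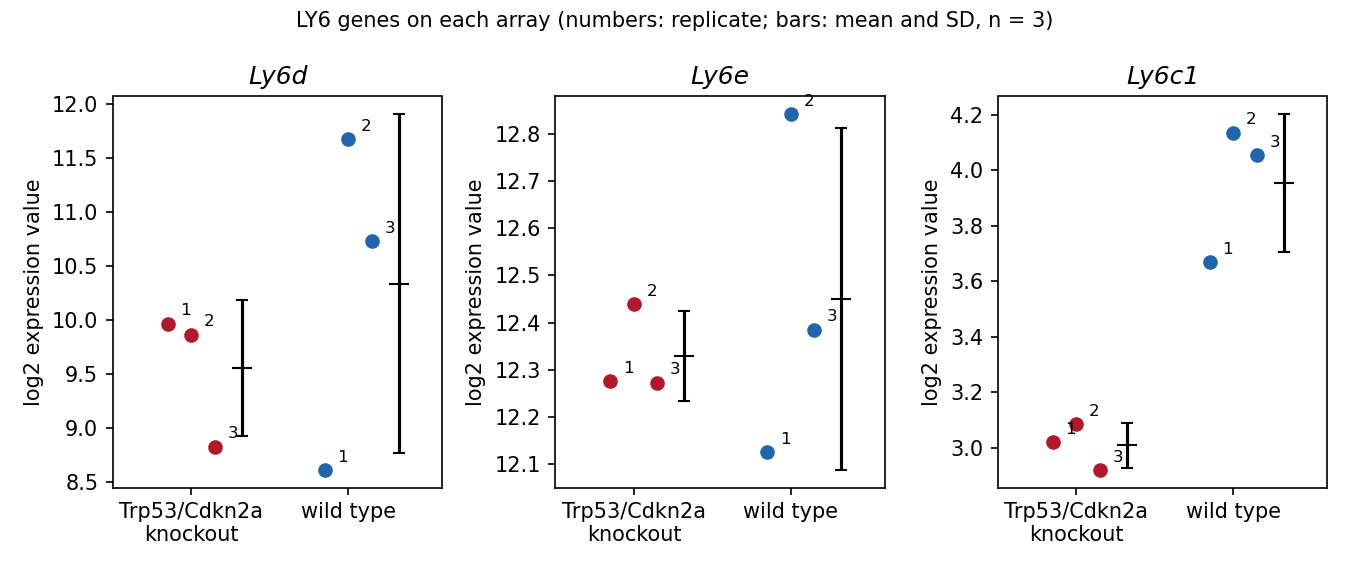
Log2 expression value (y axis, one scale per panel, not starting at 0) of Ly6d, Ly6e and Ly6c1 on each array, with knockout arrays in red and wild type arrays in blue. Numbers give the replicate, and black bars the mean and SD of 3 arrays. The wild type arrays of Ly6d span 8.61 to 11.68 and enclose the knockout arrays, while the 3 knockout arrays of Ly6c1 lie at 2.92 to 3.09, below all wild type arrays.

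The genotype difference of Ly6e was smaller than its spread between arrays. Ly6e protein, also called TSA-1 or Sca-2, marks immature thymocytes and limits the entry of coronaviruses into mouse cells. Ly6e read 12.27, 12.44 and 12.27 on the knockout arrays, against 12.12, 12.84 and 12.39 on the wild type arrays. The knockout arrays lay inside the wild type range. The mean was 12.33 ± 0.095 in knockout cells and 12.45 ± 0.364 in wild type cells (SD, n = 3 each), a log2 difference of -0.12 with a limma standard error of 0.168. Its sign turned to 0.07 without wild type replicate 2, and it was -0.29 without wild type replicate 1. Ly6e was highest in each genotype at replicate 2, and lowest of all arrays on wild type replicate 1.

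Interferon-stimulated genes, a class that Ly6e is known to belong to, stood higher in the knockout on the same arrays. Among the 49 genes measured, 43 were higher in the knockout and 6 were lower, and they had a median log2 difference of 0.42, against -0.0067 over all genes. The mean of these genes was 7.41, 7.36 and 7.11 on the knockout arrays, against 6.80, 6.79 and 6.75 on the wild type arrays, and the genotypes did not overlap. In 20 of the 49 every knockout array exceeded every wild type array, which is 40.8% against 3.63% of all genes. That list was set up knowing that such genes had been higher here, so these counts are a description, and none of its genes passed limma at an adjusted p under 0.05. Rtp4, an interferon-induced receptor transporter, read 9.48, 9.22 and 9.13 in knockout cells, against 8.09, 7.32 and 8.04 in wild type cells. Its log2 difference was 1.46 with a limma standard error of 0.233 (adjusted p = 0.818). Ifit1, which binds foreign RNA, had a log2 difference of 1.82, Gbp7, a guanylate-binding protein, of 0.94, Xaf1 of 1.14 and Oasl2 of 1.23. The antiviral synthetase gene Oas1g had a log2 difference of 2.37, but of 0.60 when probe sets with several symbols were assigned as well. Its wild type mean, 3.16, lay under 4.57, the lower quartile of all gene means. These 6 are the genes of smallest p in the list. Over the whole list the log2 differences ran from -0.27 to 2.37. That of Ly6e, -0.12 with a limma standard error of 0.168, lay near the low end of this range. Its sign is not settled, since it turned to 0.07 without wild type replicate 2. No test compared Ly6e with the genes of this list.

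Fibroblast markers also stood higher in the knockout, on the same arrays as the interferon-stimulated genes. The mean of 12 measured fibroblast markers was 6.64, 6.55 and 6.68 on the knockout arrays, against 6.40, 6.27 and 6.10 on the wild type arrays, without overlap. Of the 12, 11 were higher and 1 was lower, and the median log2 difference was 0.13, which was 0.25 without wild type replicate 1 and 0.083 without wild type replicate 2. None passed limma at an adjusted p under 0.05, and 4 had an unadjusted p under 0.05, 33.3% against 3.32% of all genes. These 4 are named after their values were seen. Dpt, the matrix protein dermatopontin, had a log2 difference of 1.21 and Lum, the proteoglycan lumican, of 1.28. Both had every knockout array above every wild type array, 16.7% of the 12 against 3.63% of all genes. The wild type mean of Lum, 4.13, lay under 4.57, the lower quartile of all gene means. Pdgfra, a growth factor receptor of fibroblasts, had a log2 difference of 0.85 and Dcn, the proteoglycan decorin, of 0.54, both with overlap. The collagen genes Col1a1, Col1a2 and Col3a1 had log2 differences of 0.13, 0.063 and 0.14, with overlap. The part of fibroblasts in the Ly6e and interferon values was not tested.

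The profiles nearest to that of Ly6e were those of Pja2, a ubiquitin ligase, at a root mean square distance of 0.029, Hs3st6, a heparan sulfate sulfotransferase, at 0.033, Snf8, a subunit of an endosomal sorting complex, at 0.039, and Nat9, an acetyltransferase, at 0.040. The median distance of all genes compared was 0.289. None of these 4 belongs to the interferon list. Pja2 read 7.95, 8.04 and 7.96 in knockout cells, against 7.74, 8.48 and 8.01 in wild type cells. Its highest and lowest arrays were those of Ly6e, which follows from picking it by nearness to that profile.

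Ly6c1 was dim on every array and lower on all 3 knockout arrays. Ly6C protein marks monocytes and the endothelium of many vessels. Ly6c1 read 3.02, 3.09 and 2.92 on the knockout arrays, against 3.67, 4.14 and 4.05 on the wild type arrays. The groups did not overlap. The mean was 3.01 ± 0.082 in knockout cells and 3.95 ± 0.248 in wild type cells (SD, n = 3 each), a log2 difference of -0.94 with a limma standard error of 0.146, or 0.52 times the wild type signal. For 4.05% of all genes every knockout array lay below every wild type array, and nothing is read from that share here, since this contrast took part in choosing the gene. Both group means lay under 4.57, the lower quartile of all gene means, and no detection call says whether so low a signal stands above background. Leaving out any one array kept the difference between -1.08 and -0.85.

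Ly6c2 is the neighbour of Ly6c1 and a close copy of it, so its signal and that of Ly6c1 are uncertain where a probe binds both, which was not tested. Their upstream sequences are shown because the pair showed lower values together. RefSeq lists 2 starts for each gene, and each sequence is the 250 bases before the more upstream one, on build GRCm38.p6, minus strand, 5′ to 3′, at chr15:75048838-75049087 for Ly6c1 and chr15:75111972-75112221 for Ly6c2. Capitals mark the longest run of bases that both contain.
Ly6c1: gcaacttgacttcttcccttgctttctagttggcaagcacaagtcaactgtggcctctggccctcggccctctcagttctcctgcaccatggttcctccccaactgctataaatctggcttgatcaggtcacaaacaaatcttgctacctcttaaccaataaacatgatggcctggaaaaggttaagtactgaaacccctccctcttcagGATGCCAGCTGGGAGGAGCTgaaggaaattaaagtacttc
Ly6c2: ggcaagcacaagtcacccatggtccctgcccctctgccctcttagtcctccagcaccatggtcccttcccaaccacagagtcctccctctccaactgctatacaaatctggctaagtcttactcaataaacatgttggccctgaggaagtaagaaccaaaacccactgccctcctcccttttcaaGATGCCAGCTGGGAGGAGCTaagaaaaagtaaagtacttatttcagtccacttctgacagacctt
The shared run is 20 bases long and begins 40 bases before that start of Ly6c1 and 65 bases before that of Ly6c2. Of 32851 such windows from 27025 genes, 5 windows of 3 genes held it, those of Ly6c1, Ly6c2 and Ly6a2. Ly6a2 had a log2 difference of -0.14, with overlapping arrays. In a global alignment of the pair 164 of 216 aligned bases were identical, 75.9%. No promoter sequence of Ly6d or Ly6e was used here.

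Ly6c2 read 5.40, 5.25 and 4.79 on the knockout arrays, against 5.42, 6.41 and 7.08 on the wild type arrays. The groups did not overlap, but wild type replicate 1 and knockout replicate 1 lay next to each other. The mean was 5.15 ± 0.318 in knockout cells and 6.31 ± 0.835 in wild type cells (SD, n = 3 each), a log2 difference of -1.16 with a limma standard error of 0.368, and it did not pass (adjusted p = 1.0). Without wild type replicate 3 the difference was -0.77. Ly6c2 was highest on wild type replicate 3, whereas Ly6c1 was highest on wild type replicate 2.

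Markers of the cell types known for Ly6C were set beside these values. Endothelial markers averaged between 5.38 and 5.45 on the knockout arrays and between 5.22 and 5.49 on the wild type arrays, with 10 of 18 higher and 8 lower in the knockout. Pecam1, which encodes the CD31 used for depletion, read 6.18, 6.39 and 5.77 in knockout cells and 5.85, 5.66 and 5.73 in wild type cells. Cdh5, an endothelial cadherin, averaged 6.80 in knockout and 6.53 in wild type cells, and Kdr, a receptor for vascular endothelial growth factor, 5.47 in knockout and 5.16 in wild type cells. Blood cell markers averaged between 4.81 and 4.95 on the knockout arrays and between 4.77 and 4.96 on the wild type arrays, with 9 of 15 higher and 6 lower. Ptprc, the CD45 gene, read between 3.35 and 3.75 in knockout cells and between 3.28 and 3.43 in wild type cells. The T cell receptor subunit genes Cd3e and Cd3g had log2 differences of -0.046 and -0.11. The median log2 difference was 0.066 for the endothelial and 0.050 for the blood list. Without wild type replicate 2 these medians turned to -0.0077 and -0.020, and without wild type replicate 1 they were 0.15 and 0.093. All 15 blood markers and 12 of the 18 endothelial markers had means below the median of all gene means, so low signal limits these lists as it limits Ly6c1. The part of these cells in the Ly6c1 values was not tested.

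The profiles nearest to that of Ly6c1 were those of Tuba8, an alpha-tubulin, at a root mean square distance of 0.136, Rab15, a small GTPase of endosomal recycling, at 0.148, the LY6 gene Ly6m at 0.176, and Smim40 at 0.178. The median distance of all genes compared was 0.526. Rab15 read 5.95, 6.05 and 6.02 in knockout cells, against 6.43, 7.34 and 7.18 in wild type cells. Ly6m, which lies on the same stretch of chromosome 15, read 6.41, 6.27 and 6.20 in knockout cells, against 6.64, 7.47 and 6.99 in wild type cells. In all 4 of these genes the knockout arrays lay below all wild type arrays, with wild type replicate 1 the lowest of its group. Over all genes 4.05% lay wholly below. Nothing is read from this likeness, since the 4 were picked for profiles near that of Ly6c1 on the same arrays.

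**Figure D2:**
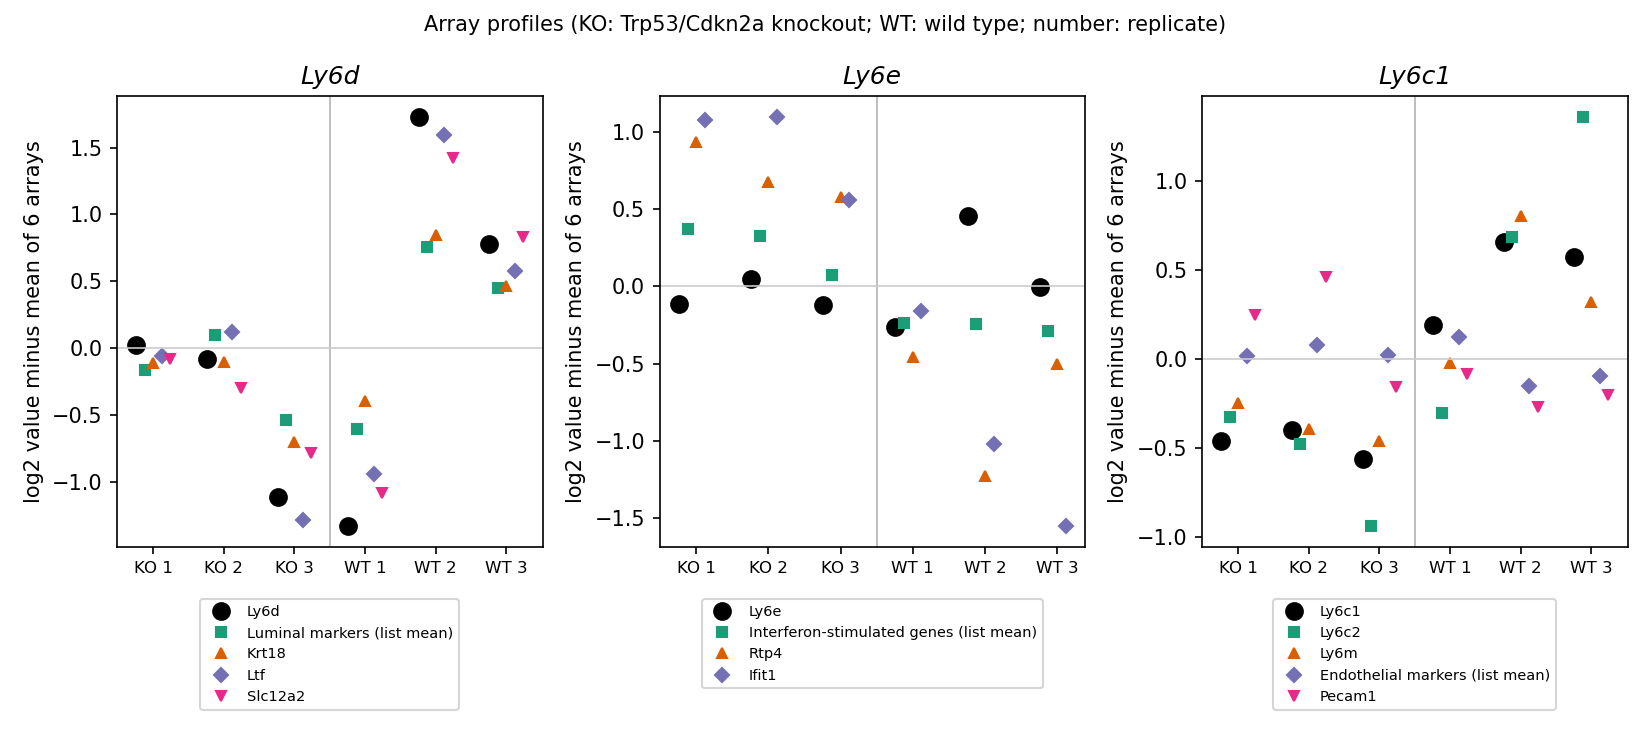
Log2 value minus the mean of the 6 arrays (y axis) for each array (x axis, knockout arrays KO left of wild type arrays WT). The panels show Ly6d with luminal markers, Ltf and Slc12a2, Ly6e with interferon-stimulated genes, and Ly6c1 with LY6 neighbours and endothelial markers. Ltf and Slc12a2 were picked for profiles near that of Ly6d, and Ly6m for one near that of Ly6c1, so their likeness follows from the choice. Ly6d, the luminal list mean and Krt18 are low together on wild type replicate 1 and high together on wild type replicates 2 and 3. Krt18 is lowest on knockout replicate 3. Ly6e stays near 0 on the knockout arrays, where the interferon-stimulated genes are above their means.

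The LY6 cluster on chromosome 15 was then described as a whole. From Psca to Gpihbp1 the annotation lists 29 protein-coding genes, 23 of them of the LY6 family, and 20 of these were measured. Counting the 3 members, 14 were lower and 6 higher in the knockout, with a median log2 difference of -0.087. Without the members 11 of 17 were lower, 64.7%, where 51.7% of all genes were lower. Ly6c2 and Ly6m were the 2 of these 17 whose knockout arrays all lay below the wild type arrays, 11.8% against 4.05% of all genes, and 0 of the 17 lay wholly above. Ly6c1 itself is the annotated neighbour of Ly6c2, whose signal is uncertain where a probe binds both. Of the 17, 10 had means below the median of all gene means, so low signal limits these counts. Ly6i, between Ly6e and Ly6c1 in the measured order, had a log2 difference of -0.19 with a standard error of 0.132, and overlapping arrays. Lynx1, a modulator of nicotinic receptors that lies next to Ly6d, read 7.86, 8.97 and 8.26 in knockout cells and 8.32, 8.94 and 8.46 in wild type cells. Ly6g6g, on the other side of Ly6d, averaged 6.16 ± 0.108 in knockout cells and 6.20 ± 0.203 in wild type cells (SD, n = 3 each). The lowest array was knockout replicate 1 for Lynx1 and wild type replicate 3 for Ly6g6g, whereas it was wild type replicate 1 for Ly6d.

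**Figure D3:**
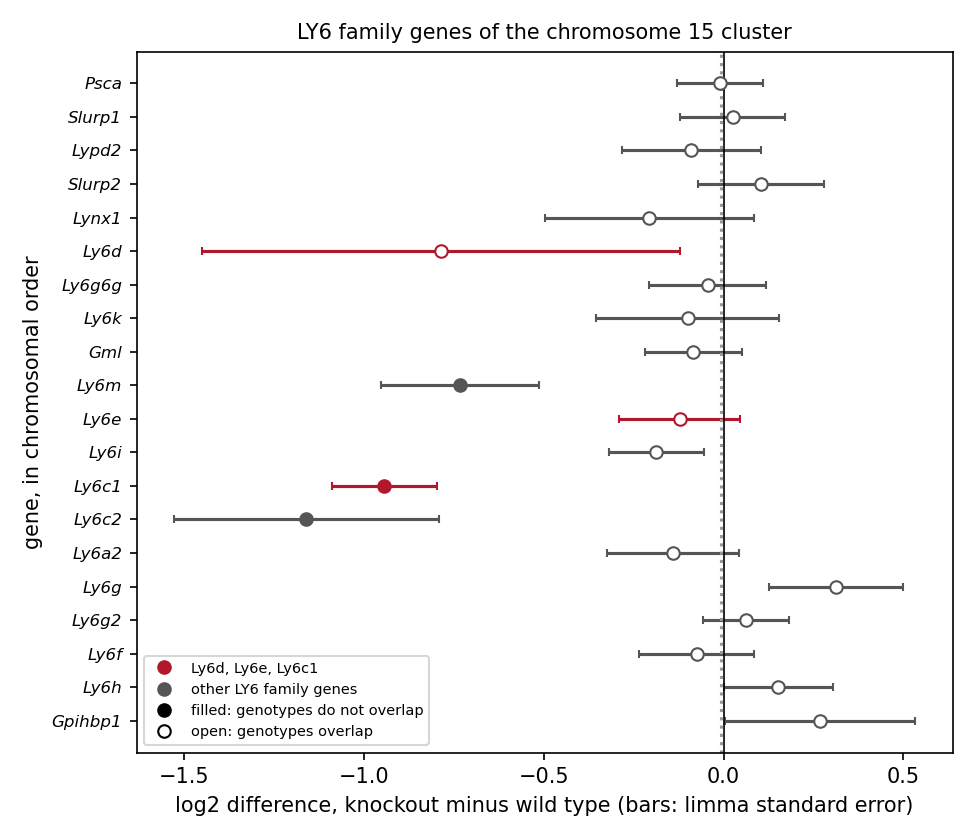
Log2 difference, knockout minus wild type (x axis), of the 20 measured LY6 family genes between Psca and Gpihbp1 in chromosomal order (y axis), with limma standard errors. Filled points mark genes whose genotypes do not overlap, and the dotted line the median of all genes. Ly6m, Ly6c1 and Ly6c2 are filled and lie between -1.16 and -0.73, and Ly6d lies in that range with overlapping arrays.

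Across the wider LY6 and urokinase receptor family, 42 further genes were measured of 47 listed. In the knockout 29 were lower (69.0%, where 51.7% of all genes were lower) and 13 higher. The median log2 difference was -0.087, against -0.0067 over all genes. Without wild type replicate 3 the median was -0.043. Of the 42, 26 had means below the median of all gene means, so low signal limits this list too. None passed limma at an adjusted p under 0.05 in either direction. At an unadjusted p under 0.05 limma gave 3, all lower (7.14% of the 42, against 3.32% of all genes): Ly6m, Ly6c2 and Plaur. These 3 were also those without overlap, 7.14% wholly below against 4.05% of all genes. Ly6m and Ly6c2 are the same genes already counted in the chromosome 15 cluster. Plaur, the receptor of the protease urokinase, read 10.79, 9.99 and 10.92 in knockout cells, against 11.30, 11.29 and 11.07 in wild type cells. Knockout replicate 2 lay well below the other knockout arrays, and the log2 difference of -0.66 (standard error 0.230, limma adjusted p = 1.0) became -0.37 without it. Lypd3, a relative of the urokinase receptor found in squamous epithelium, had a log2 difference of -0.33, Ly6g6e of -0.35 and Ly6g, the neutrophil marker, of 0.31. That of Lypd3 was -0.17 without knockout replicate 2, -0.21 without wild type replicate 1 and -0.13 with array weights, that of Ly6g6e was -0.11 without wild type replicate 3 and -0.60 with array weights, and that of Ly6g was 0.09 without knockout replicate 3. Arrays of both genotypes overlapped for these 3 genes. Cd59a, which blocks the membrane attack complex of complement, and Gpihbp1, which carries lipoprotein lipase in capillaries, are named after their values were seen. Cd59a read 9.93, 10.29 and 8.69 in knockout cells and 9.07, 9.38 and 9.73 in wild type cells, so the genotypes overlapped. Gpihbp1 read 6.33, 6.67 and 6.46 in knockout cells and 6.51, 5.58 and 6.58 in wild type cells, with wild type replicate 2 the lowest.

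The enzymes that build and attach the GPI anchor were measured as a readout that had no part in choosing the LY6 genes. Of 29 genes measured, 20 were lower (69.0%, where 51.7% of all genes were lower) and 9 higher in the knockout. The median log2 difference was -0.068, against -0.0067 over all genes. None passed limma at an adjusted p under 0.05 or at an unadjusted p under 0.05. The mean of the list was 6.90, 7.07 and 6.89 on the knockout arrays, against 6.84, 7.16 and 7.13 on the wild type arrays. Wild type replicate 1 was the lowest and the genotypes overlapped. Pigo, which adds an ethanolamine phosphate to the anchor, read 6.04, 6.43 and 6.44 in knockout cells, against 6.62, 6.55 and 6.98 in wild type cells, without overlap (log2 difference -0.42, standard error 0.190, limma adjusted p = 1.0). Pigo was the 1 gene of the list wholly below, 3.45% against 4.05% of all genes. Pgap1, which removes an acyl chain from the attached anchor, had a log2 difference of -0.54. It was -0.10 without wild type replicate 3 and -0.89 without wild type replicate 1. Gpaa1, a subunit of the transamidase that joins anchor and protein, had a log2 difference of -0.25, Pigq of -0.29, Pgap4 of -0.20 and Pigc of 0.30, with overlapping arrays. With 1 array left out, Gpaa1 lay between -0.40 (wild type replicate 1) and -0.14 (wild type replicate 2). Pigq then lay between -0.55 (wild type replicate 1) and -0.13 (wild type replicate 3). Leaving out knockout replicate 2 gave -0.45 for Pigq, leaving out knockout replicate 1 gave -0.13, and leaving out wild type replicate 2 gave -0.19. Pgap4 was at -0.12 and Pigc at 0.19 without wild type replicate 1. Pigq was at -0.077 with the mean over its probe sets and at -0.52 with array weights. The median of the list was -0.20 without wild type replicate 1 and -0.030 without wild type replicate 2.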

How the data were processed

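Per the submitters' processing notes, the authors made the deposited log2 values by RMA (background correction, normalization between arrays and 1 summary per probe set) and used Transcriptome Analysis Console 4.0. RMA pulls arrays to one distribution, so a shift of all genes would not be seen. The 6 arrays formed 2 genotypes of 3 by their titles.

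Of 41345 deposited rows, 23521 had exactly 1 gene symbol in the platform annotation, 1814 had several and 16010 were unnamed here. Per gene the row of highest mean was kept, which left 22180 genes. Each LY6 member had 1 row. The genotype fit used limma 3.58.1 under R 4.3.3 (lmFit, eBayes with trend, two-sided, Benjamini-Hochberg adjustment over all genes, threshold 0.05). The fit was also run on simulated arrays with independent noise for each gene. Deviations of same-numbered real arrays correlated weakly across genes, between 0.121 and 0.25, so their noise was not independent. That run therefore does not show what the fit could detect here. Of 221 entries in 8 gene lists 201 were measured, 1 of them through its gene ID. Named were the members, the 6 genes of smallest p in each of 3 lists, the first 3 measured markers of each marker list, LY6 genes next to a member and the 4 genes of nearest profile per member, predicted genes left out. Members and lists were chosen with earlier results of these data known. Chromosomal order and promoters came from RefSeq (GRCm38.p6). Figures were drawn with matplotlib 3.10.9.

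Same-numbered arrays of both genotypes deviated together weakly, with correlations across genes of 0.121, 0.25 and 0.127, all over 0.1. The pairing comes from these values and the shared numbers, and no label says what a number shares. Knockout replicate 3 correlated slightly more with wild type replicate 1, at 0.13. The fit without pairing was the main one. Alternatives changed the variance prior, array weights, normalization, centring, the rows used, the filter on dim genes and the pairing, and left out each array in turn.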

Additional observations from a re-analysis of the deposited data

How the results depend on the processing

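In a replicate block fit 1112 genes had an unadjusted p under 0.05, against 736 without the block, 1970 with array weights and 319 when genes at or below the median level were dropped. The block changed no other call. With 1 array left out this count lay between 554 and 1788, the highest without wild type replicate 1. An adjusted p under 0.05 was reached by 0 genes under every alternative run. The looser threshold of 0.1 was counted in the main fit only, where 0 genes reached it. Without knockout replicate 1, Oas1g had a limma adjusted p of 0.0749. The median of the basal markers turned to 0.0030 with array weights and lay between -0.089 and 0.045 with 1 array left out. With 1 array left out, log2 differences lay between -1.65 and -0.12 for Ly6d, -0.29 and 0.074 for Ly6e and -1.08 and -0.85 for Ly6c1. List medians then lay between 0.34 and 0.49 (interferon-stimulated), -0.20 and -0.030 (GPI), -0.11 and -0.043 (LY6 family), -0.72 and -0.13 (luminal), -0.0077 and 0.15 (endothelial), -0.020 and 0.093 (blood) and 0.083 and 0.25 (fibroblast). Other alternatives moved members and lists by less than 1 SD between arrays. Ly6c1 has no value under the filter on dim genes, which removes it. The same filter leaves no median for the blood markers. Low signal limits Ly6c1 and these markers.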
